A study of Mus musculus with 6 samples.

Results

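Interferon-inducible GTPases are GTP-binding proteins that cells make after interferon exposure. They include the immunity-related GTPases (IRG), the guanylate-binding proteins (GBP) and the Mx proteins. The 10 genes described here were Irgm1, Irgm2, Igtp, Iigp1, Ifi47 and Tgtp2 of the IRG family, Gbp2, Gbp3 and Gbp7 of the GBP family, and Mx1. They were chosen by family and selected on their measured values, because the expected counts and FPKM (fragments scaled to transcript length and to library size) of the same control, PQ and NAC libraries were known when the list was drawn up. They make up 10 of the 17254 genes with a value in any library. Tests covered the 11717 genes whose FPKM averaged 1 or more over the 6 libraries. These include 9 of the 10 and leave out Mx1, which averaged 0.775 FPKM. The levels and fold changes of these 10 genes are therefore given as a description. Whether each passed the threshold of the genome-wide test is stated, but its p-value is not printed, because genes selected on the same libraries are not tested by them. The same holds for the genes of the lists below, which were drawn up with earlier results of these data known.

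The data are RNA-seq of neural stem/progenitor cells (NSPCs) from neonatal mice after 48 h of culture in N2 medium with EGF and bFGF (20 ng/ml where the labels give a concentration). The 3 groups were mock-treated control cells, cells given 5 µM paraquat (PQ), a redox cycler that generates superoxide, and cells given the thiol antioxidant N-acetylcysteine (NAC, 5 mM per the methods), with 2 libraries each. The cells were C57BL/6 per the labels of control 1 and PQ 1 and had been immortalized through loss of the Ink/Arf locus (written Ink/Ark knockout in those labels); the labels of the other 4 libraries give neither genotype nor strain. The study's reporting summary says that the sequencing was repeated, but neither it nor the labels say whether the libraries of a group came from separate cultures, so the p-values behind the calls below measure only the spread between these libraries, which may be technical. The labels of control 1 and PQ 1 name a NucleoSpin extraction and the mm9 genome, whereas those of control 2, PQ 2, NAC 1 and NAC 2 name TRIzol, the BGISEQ-500 sequencer and mm10. Both NAC libraries thus carry the latter labels, and NAC can be set against a control of the same labels only through control 2. The expected counts summed to between 9680436 and 10698241 per library.

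IRG proteins fall into GKS proteins, which bind and disrupt membranes around intracellular pathogens, and GMS proteins, named after a methionine in the nucleotide-binding motif, which sit on the membranes of the cell itself and hold the GKS proteins inactive there. GBP proteins assemble on pathogen membranes and on released bacterial lipopolysaccharide and promote inflammasome signalling, while Mx proteins are dynamin-like GTPases that block viral replication. Type I interferon acts on such genes at interferon-stimulated response elements, and interferon-gamma acts at gamma-activated sites.

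The libraries were checked against markers of NSPCs and of brain macrophages, a cell type that responds readily to interferon. Vim (mean 2073 FPKM), Fabp7 (808 FPKM), Olig2 (322 FPKM), Sox2 (134 FPKM) and Nes (94.1 FPKM) were abundant. Of 12 microglia and macrophage markers, 8 had 3 counts or fewer in every library, among them Aif1, Csf1r, Tmem119, Ptprc, Trem2, C1qa and C1qb. The summed FPKM of the 12 was 3.20 in control 1, 3.03 in control 2, 5.90 in PQ 1, 5.12 in PQ 2, 5.92 in NAC 1 and 4.76 in NAC 2, and P2ry12 had the highest mean FPKM of the list over the 6 libraries, although Cd68 was above it in PQ 1 (2.63 against 2.26 FPKM). P2ry12 was called higher with NAC (1.18, SE 0.26), a call that ended without NAC 1 (0.86). These sums were higher in treated than in control libraries, and their part in the GTPase levels was not tested. In bulk RNA, fewer cells of a type and less RNA per cell cannot be told apart. Cdkn2a, the gene of the Ink/Arf locus, was listed at 13.7 to 19.1 FPKM over the 6 libraries, and Cdkn2b beside it at 8.14 to 13.4 FPKM. A value per gene does not show which exons the reads came from, so it does not check the deletion.

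The IRG and GBP genes lie in clusters, and the stretches before their starts are shown so that the letters of members in a cluster can be compared. RefSeq windows on GRCm38.p6 were at hand for 8 of the 10 genes, with 2 starts for Gbp3, and the names without a window were Iigp1 and Mx1. The 250 bases before each start were searched for the letters GAAA followed after any 2 bases by GAAA again, on both strands, the core of an interferon-stimulated response element, and for TTCNNNGAA, which reads the same on both strands and is the core of a gamma-activated site. A match is a description of letters and not of a site in use. The former letters occurred in 2.98% of the 32851 windows of all genes, the latter in 7.02%, and both in 0.33%. Among the 8 genes with a window, 7 held the GAAA repeat (Irgm1, Irgm2, Igtp, Tgtp2, Gbp2, Gbp3 and Gbp7) and 4 held TTCNNNGAA (Irgm2, Igtp, Tgtp2 and Gbp7). The whole 250 bases are given for the most abundant IRG and the most abundant GBP gene among the members with a window, with matched letters in capitals. The Irgm1 stretch is chr11:48871421-48871670 on the minus strand and the Gbp2 stretch is chr3:142620413-142620662 on the plus strand.
Irgm1: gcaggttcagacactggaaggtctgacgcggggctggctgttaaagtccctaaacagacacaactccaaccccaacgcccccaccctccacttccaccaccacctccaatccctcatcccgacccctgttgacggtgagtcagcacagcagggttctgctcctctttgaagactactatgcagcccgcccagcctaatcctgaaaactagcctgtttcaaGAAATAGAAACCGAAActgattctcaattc
Gbp2: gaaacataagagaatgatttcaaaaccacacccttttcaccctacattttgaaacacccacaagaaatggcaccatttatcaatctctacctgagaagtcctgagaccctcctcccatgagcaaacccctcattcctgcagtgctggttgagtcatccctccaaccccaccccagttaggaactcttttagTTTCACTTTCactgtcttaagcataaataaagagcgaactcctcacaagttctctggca

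The remaining genes are shown from position -110 to -21, where position -1 is the base before the start. This stretch was chosen after the matches had been seen. It is chr11:58214867-58214956 for Irgm2, chr11:58199446-58199535 for Igtp, chr11:49076477-49076566 for Ifi47, chr3:142559934-142560023 for the upstream start of Gbp3 and chr3:142530226-142530315 for Gbp7, all on the plus strand, and chr11:49064233-49064322 on the minus strand for Tgtp2.
Irgm2: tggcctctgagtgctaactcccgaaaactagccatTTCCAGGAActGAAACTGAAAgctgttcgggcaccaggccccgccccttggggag
Igtp: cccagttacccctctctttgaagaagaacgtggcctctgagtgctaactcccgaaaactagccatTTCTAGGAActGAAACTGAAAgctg
Tgtp2: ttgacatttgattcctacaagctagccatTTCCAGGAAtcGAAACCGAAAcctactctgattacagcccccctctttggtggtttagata
Ifi47: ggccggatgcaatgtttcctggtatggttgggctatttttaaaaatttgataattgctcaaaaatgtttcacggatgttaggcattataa
Gbp3: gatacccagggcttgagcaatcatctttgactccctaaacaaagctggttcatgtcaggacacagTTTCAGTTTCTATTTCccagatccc
Gbp7: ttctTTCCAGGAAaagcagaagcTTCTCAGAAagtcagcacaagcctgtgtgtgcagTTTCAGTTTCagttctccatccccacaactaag
In Irgm2, Igtp and Tgtp2 the gamma-activated site letters stood 2 bases before the response element letters. The same spacing occurred in 2 other IRG genes, Tgtp1 and Gm12185. In Gbp7 the gaps were 25 and 44 bases. In Irgm1 and in Gbp3 a pair of GAAA repeats overlapped. Ifi47 and the downstream start of Gbp3 held neither motif in this window.

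**Figure D1:**
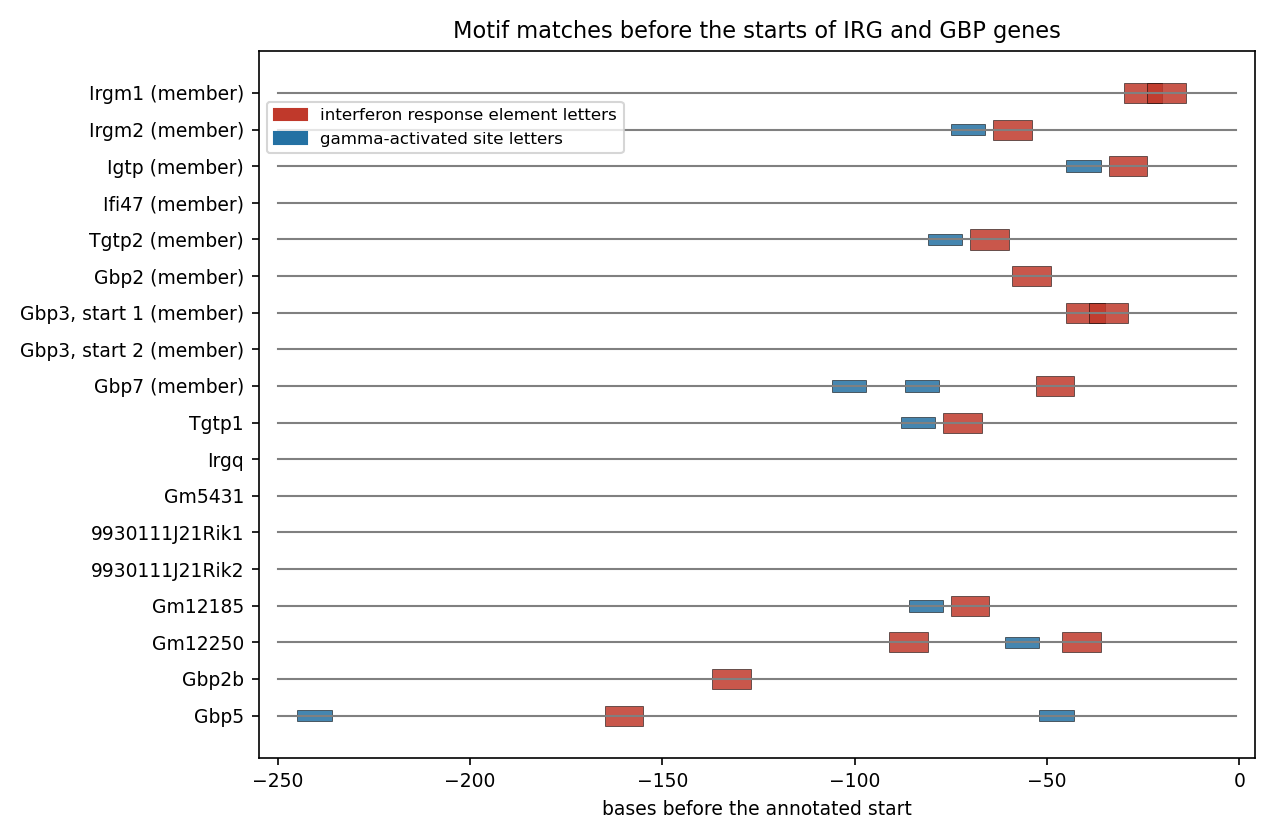
Positions of the matched letters in the 250 bases before the annotated start of each IRG and GBP gene with a window; each grey line is a window, tall red boxes are GAAA repeats on either strand and short blue boxes are TTCNNNGAA. In Irgm2, Igtp, Tgtp2, Tgtp1 and Gm12185 a blue box stands 2 bases before a red one, and most matches lie within the 110 bases next to the start.

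The IRG members of chromosome 11 lie in 2 clusters, Irgm1, Tgtp2 and Ifi47 in 1 and Igtp and Irgm2 in the other, with 9107.3 kb between the start of Ifi47 and that of Gm12250, the next family gene. Igtp and Irgm2 start 15.4 kb apart on the same strand, and Tgtp2 and Ifi47 start 12.4 kb apart on opposite strands. The windows of Igtp and Irgm2 shared an identical run of 55 bases and 134 of 220 aligned bases (60.9%). Those of Tgtp2 and Gm12185 were closer still, with 236 of 245 bases identical (96.3%) and a run of 114, so their shared spacing lies in a nearly identical stretch, whereas the median best ungapped alignment over all 136 pairs of family windows had 35.9% identical bases. Gbp7, Gbp3 and Gbp2 lie in that order on chromosome 3, with 29.7 kb between the starts of Gbp7 and Gbp3 and Gbp2b between Gbp3 and Gbp2. Iigp1 lies on chromosome 18 and Mx1 on chromosome 16.

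Among the GMS genes, Irgm1 (NCBI gene 15944), a regulator of IRG activity that also acts in autophagy, was the most abundant IRG gene. Irgm1 stood at 18.7 and 18.9 FPKM in the controls, 51.1 and 34.9 with PQ, and 30.8 and 30.4 with NAC, each pair in the order of replicates 1 and 2. Both controls were low, both PQ libraries were above both NAC libraries, and the PQ libraries differed from each other more than the pairs of the other groups did. Irgm2 (54396) stood at 3.69 and 3.95 FPKM in the controls, 7.84 and 6.88 with PQ, and 4.35 and 4.56 with NAC. Igtp (16145), also called Irgm3, stood at 5.33 and 4.82 FPKM in the controls, 17.6 and 13.2 with PQ, and 6.50 and 6.42 with NAC. For both genes the PQ libraries were high, and the NAC libraries lay above the controls without overlap but much nearer to them than to PQ.

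The GKS effector genes were far less abundant. Iigp1 (60440), a GTPase that loads onto the vacuole of Toxoplasma, stood at 1.60 and 1.23 FPKM in the controls, 5.46 and 3.61 with PQ, and 3.13 and 2.81 with NAC. Ifi47 (15953), also called Irgd, stood at 0.53 and 0.23 FPKM in the controls, 2.54 and 2.07 with PQ, and 1.35 and 1.34 with NAC, from expected counts of 9 and 4 in the controls, 45.8 and 34.8 with PQ, and 25 and 23 with NAC. In both genes the order was control, NAC, PQ with no overlap between groups. Tgtp2 (100039796), also called Irgb6, had 10.5 and 0 expected counts in the controls, 49.9 and 49.6 with PQ, and 35 and 38.9 with NAC. Its close paralog Tgtp1 had 3.52 and 9 counts in the controls, 20.1 and 0 with PQ, and 0 and 0 with NAC, so the division of reads between the pair is uncertain. Summed over both genes, which was decided after the values had been seen, the counts were 14 and 9 in the controls, 70 and 49.6 with PQ, and 35 and 38.9 with NAC. The sum kept the order control, NAC, PQ.

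The GBP members followed another order. Gbp2 (14469), which binds pathogen vacuoles and bacteria in the cytosol, stood at 11.8 and 10.0 FPKM in the controls, 42.6 and 35.5 with PQ, and 49.4 and 48.9 with NAC. Gbp3 (55932) stood at 11.2 and 10.3 FPKM in the controls, 29.3 and 23.9 with PQ, and 28.7 and 29.9 with NAC. Gbp7 (229900) stood at 9.03 and 9.55 FPKM in the controls, 15.1 and 13.5 with PQ, and 14.7 and 12.4 with NAC. In all of these genes every treated library was above both controls. The NAC libraries were above both PQ libraries for Gbp2, and the PQ and NAC libraries overlapped for Gbp3 and Gbp7.

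Mx1 (17857), a nuclear antiviral GTPase whose gene is defective in many inbred mouse strains, C57BL/6 included, had 19 and 8.49 expected counts in the controls, 39.3 and 32.6 with PQ, and 15.6 and 17.0 with NAC. The PQ libraries were highest and NAC fell within the range of the controls. Without the filter on low values, its log2 fold changes were 1.36 (SE 0.37) in PQ against control, 0.19 (SE 0.42) in NAC against control and 1.17 (SE 0.36) in PQ against NAC.

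**Figure D2:**
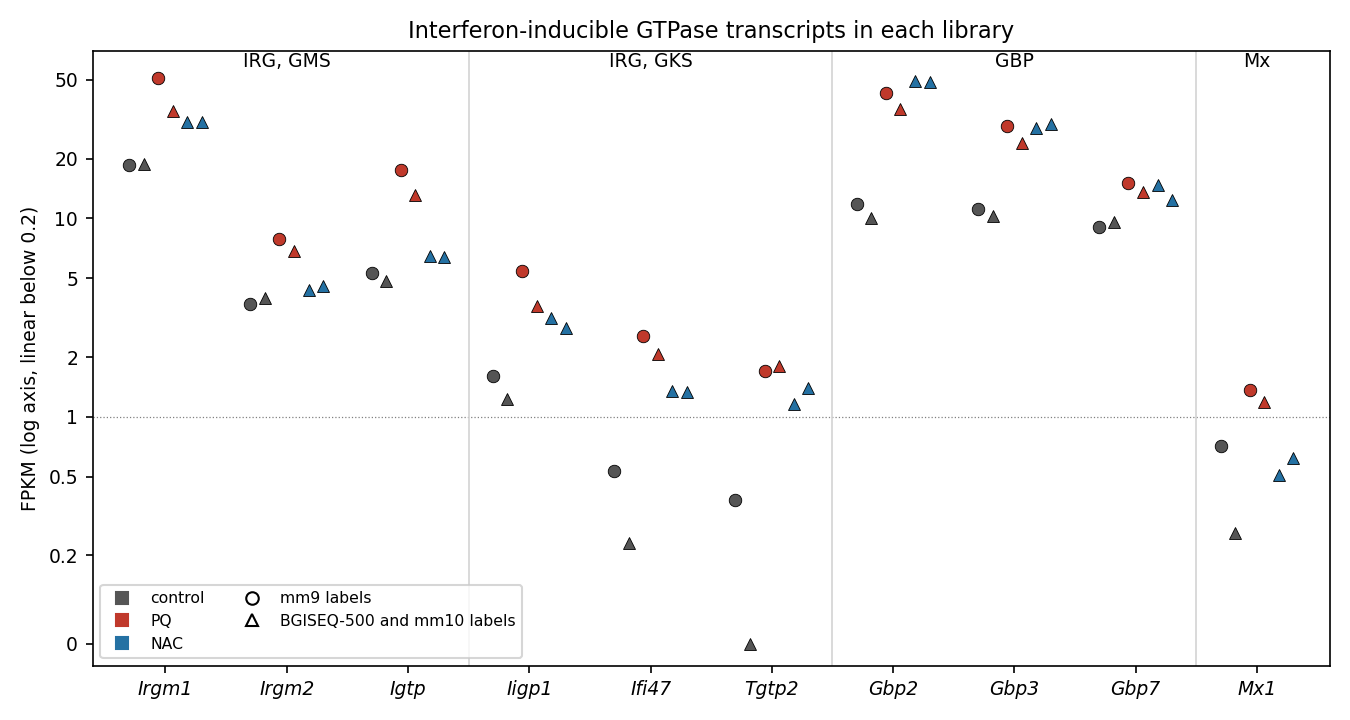
FPKM of the 10 genes in each of the 6 libraries, on a log axis that is linear below 0.2; grey points are control, red points PQ and blue points NAC, circles mark libraries with mm9 labels and triangles those with BGISEQ-500 and mm10 labels, and the dotted line is the filter of 1 FPKM, which applies to the mean of all 6. Every PQ library is above both controls for each gene, and NAC is above PQ only for Gbp2 and in part for Gbp3 and Gbp7.

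Per length of transcript, the order of levels changed with treatment. In control cells Irgm1 led with 18.8 ± 0.163 FPKM (SD, n = 2), followed by Gbp2 with 10.9 ± 1.22 (SD, n = 2), Gbp3 with 10.7 ± 0.622 (SD, n = 2) and Gbp7 with 9.29 ± 0.368 (SD, n = 2). Gbp2 and Gbp3 did not differ beyond their spread there. With PQ, Irgm1 (43.0 ± 11.5 FPKM, SD, n = 2) and Gbp2 (39.1 ± 5.04 FPKM, SD, n = 2) did not differ beyond their spread and were followed by Gbp3 (26.6 ± 3.80 FPKM, SD, n = 2). Igtp reached 15.4 ± 3.11 FPKM (SD, n = 2) and Gbp7 14.3 ± 1.10 FPKM (SD, n = 2), again within their spread. With NAC, Gbp2 led with 49.2 ± 0.361 FPKM (SD, n = 2), ahead of Irgm1 with 30.6 ± 0.233 (SD, n = 2) and Gbp3 with 29.3 ± 0.856 (SD, n = 2). Iigp1, Ifi47, Tgtp2 and Mx1 were the 4 lowest in every group. The 6 IRG genes made up 48.6% of the summed FPKM of the 10 genes in control, 47.8% in PQ and 33.7% in NAC, while the 3 GBP genes made up 50.6%, 51.4% and 65.9%.

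PQ against control asks what an oxidant did to these transcripts. Fold changes came from edgeR's quasi-likelihood test over all genes tested, with Benjamini-Hochberg adjustment, and a gene was called at an adjusted p under 0.05. All 9 members tested were called higher, of which Tgtp2 and Ifi47 averaged under 1 FPKM in control cells and passed the filter through the treated libraries. This compares with 9.76% of all genes tested called higher and 9.45% called lower. Both PQ libraries were above both controls for the same 9, which held for 29.2% of all genes tested. As the members were selected on these libraries, nothing is read from their count. Among the GKS genes the log2 fold changes were 3.25 (SE 0.53) for Tgtp2, 2.57 (SE 0.42) for Ifi47 and 1.63 (SE 0.22) for Iigp1. They were 1.57 (SE 0.16) for Igtp, 1.16 (SE 0.13) for Irgm1 and 0.92 (SE 0.15) for Irgm2 among the GMS genes, and 1.81 (SE 0.12) for Gbp2, 1.28 (SE 0.12) for Gbp3 and 0.59 (SE 0.11) for Gbp7. The median was 1.57 over the members and -0.0013 over all genes tested.

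Libraries that share labels gave the same direction as the pooled values for the members tested that had a ratio in both pairs. PQ 1 against control 1 (mm9 labels) and PQ 2 against control 2 (BGISEQ-500 and mm10 labels) had log2 ratios of 1.40 and 0.88 for Irgm1, 1.04 and 0.80 for Irgm2, and 1.68 and 1.44 for Igtp. The ratios were 1.68 and 1.56 for Iigp1, 2.23 and 3.18 for Ifi47, 1.81 and 1.82 for Gbp2, 1.34 and 1.21 for Gbp3, and 0.69 and 0.50 for Gbp7. The control libraries decided the size of the fold of the least abundant genes. Without control 1 the log2 fold change of Ifi47 was 3.28 in PQ and 2.47 in NAC. For Tgtp2, whose count in control 2 was 0.00, the corresponding values were 8.67 and 8.18 without control 1 and 2.25 and 1.76 without control 2. With Tgtp1 and Tgtp2 summed, the fold changes were 2.33 in PQ and 1.58 in NAC against control. DESeq2 did not call Tgtp2 in either comparison.

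NAC against control asks how an antioxidant alone changed the same genes, and it shares its 2 control libraries with the comparison above. Here 7 of the 9 members were called higher, next to 9.01% of all genes tested called higher and 9.64% called lower. Both NAC libraries were above both controls for all 9, which held for 28.4% of all genes tested. The GBP genes rose by 2.13 (SE 0.12) for Gbp2, 1.40 (SE 0.12) for Gbp3 and 0.50 (SE 0.11) for Gbp7 on the log2 scale. The GKS genes rose by 2.76 (SE 0.56) for Tgtp2, 1.77 (SE 0.46) for Ifi47 and 0.97 (SE 0.24) for Iigp1. Among the GMS genes, Irgm1 rose by 0.66 (SE 0.14), whereas Igtp at 0.30 (SE 0.18) and Irgm2 at 0.18 (SE 0.15) were not called. The median was 0.97 over the members and -0.0018 over all genes tested. Against control 2 alone, the control of the same labels, NAC 1 and NAC 2 had log2 ratios of 2.27 and 2.24 for Gbp2, 0.67 and 0.64 for Irgm1, 0.39 and 0.36 for Igtp, and 0.11 and 0.16 for Irgm2. The calls of Iigp1 (0.87), Ifi47 (1.76) and Gbp7 (0.36) ended without NAC 1, which left 4 members called, and that of Ifi47 (1.29) also ended without control 2.

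The direct comparison of PQ with NAC asks where oxidant and antioxidant differ. Of the 9 members, 4 were called higher with PQ and 1 lower, next to 16% of all genes tested called higher and 15.7% called lower. Both PQ libraries were above both NAC libraries for 6 of the 9, the IRG genes, which held for 33.2% of all genes tested. Igtp differed most, by 1.27 (SE 0.16), followed by Irgm2 at 0.74 (SE 0.14), Iigp1 at 0.66 (SE 0.20) and Irgm1 at 0.51 (SE 0.13). Ifi47 at 0.81 (SE 0.32) and Tgtp2 at 0.49 (SE 0.35) were not called. Without control 1, or without control 2, 5 members were called higher with PQ. Gbp2 was lower with PQ, at -0.31 (SE 0.11), while Gbp3 at -0.12 (SE 0.11) and Gbp7 at 0.10 (SE 0.11) were not called. The median was 0.70 over the 6 IRG members, -0.12 over the 3 GBP members and 0.0004 over all genes tested. Igtp and Irgm2 kept their call in each alternative fit. With the labels as a covariate, Irgm1 (0.35) and Iigp1 (0.39) lost theirs, as they did without PQ 1 (0.22 and 0.37), and Iigp1 also lost it without NAC 2 (0.57). The call of Gbp2 ended without PQ 2 (-0.20), without NAC 1 (-0.30) and without NAC 2 (-0.33). Within the libraries of BGISEQ-500 labels, PQ 2 against NAC 1 and NAC 2 gave 1.05 and 1.08 for Igtp, 0.68 and 0.63 for Irgm2, 0.21 and 0.24 for Irgm1, 0.28 and 0.48 for Iigp1, and -0.45 and -0.42 for Gbp2.

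**Figure D3:**
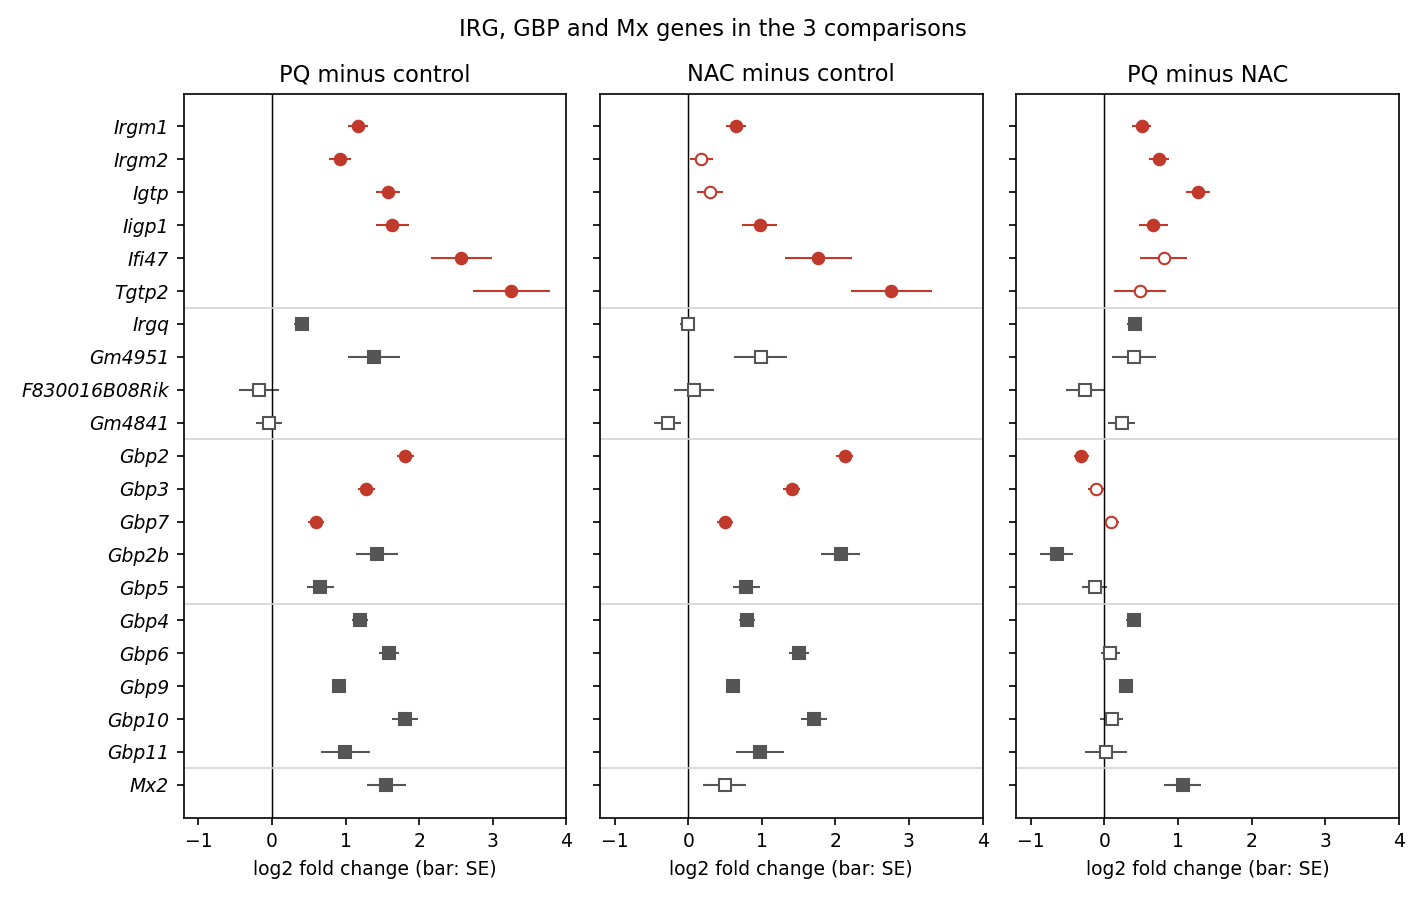
Log2 fold changes with SE of the 21 IRG, GBP and Mx genes tested, in the 3 comparisons; red circles are members, grey squares are other genes of the families, filled symbols were called at an adjusted p under 0.05, and grey lines separate IRG members, other IRG genes, GBP genes of chromosome 3, GBP genes of chromosome 5 and Mx2. IRG members lie to the right in PQ minus NAC, whereas the GBP genes scatter around 0 there.

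The other genes of the families are those left after the members had been picked, so they too are described without p-values. The 23 such genes include 2 of the GVIN family of very large interferon-inducible GTPases, and 12 of the 23 were tested. In PQ against control 10 were called higher and none lower, with a median log2 fold change of 1.10; this count was 6 without PQ 1. In NAC against control 7 were called higher and none lower, with a median of 0.79. The shares of all genes tested called higher were 9.76% with PQ and 9.01% with NAC. All 7 other GBP genes tested were higher in both comparisons. The PQ call of Gbp5 ended without control 2 (0.61), PQ 1 (0.73) or PQ 2 (0.59) and its NAC call without NAC 1 (0.71). For Gbp11 the PQ call ended without control 2 (0.81) or PQ 1 (0.44), and the NAC call without control 2 (0.79) or NAC 2 (0.66). Gbp9, which had the highest mean FPKM of the families over the 6 libraries though Gbp2 was above it with NAC, stood at 30.5 and 29.8 FPKM in the controls, 60.1 and 54.9 with PQ, and 47.7 and 47.5 with NAC. It rose by 0.91 (SE 0.09) with PQ and by 0.61 (SE 0.09) with NAC. Gbp10 had the largest rise with PQ among these genes, at 1.81 (SE 0.17), and Gbp2b had the largest with NAC, at 2.07 (SE 0.26).

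The other IRG genes did not move as a group. Irgq, a divergent IRG-like gene without an interferon-type promoter match in its window, was called higher with PQ (0.40, SE 0.10), and Gm4951, which lies on chromosome 18 like Iigp1, likewise (1.38, SE 0.35). Both calls ended without PQ 1 (log2 fold changes 0.41 and 1.06), and that of Irgq also without control 1 (0.32) or PQ 2 (0.40). With NAC, Gm4951 differed from control by 0.98 (SE 0.36), which was not called but was called without the filter on low values. None of the other IRG genes tested was called with NAC, though 1 was with the labels as a covariate or without NAC 1. Gm4841 at -0.04 (SE 0.18) with PQ and F830016B08Rik at -0.18 (SE 0.28), also on chromosome 18, were not called in any of the 3 comparisons. Mx2, the cytoplasmic relative of Mx1, stood at 1.34 and 1.33 FPKM in the controls, 5.10 and 2.95 with PQ, and 2.09 and 1.83 with NAC. It was called in PQ against control at 1.56 (SE 0.27) and not in NAC against control at 0.49 (SE 0.30). The difference of PQ from NAC was 1.06 (SE 0.25), a call that ended without PQ 1 (0.62).

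The GBP genes lie on 2 chromosomes. The 5 genes of chromosome 3 (Gbp2, Gbp2b, Gbp3, Gbp5 and Gbp7) summed to 35.0 and 32.8 FPKM in the controls, 92.1 and 79.0 with PQ, and 100.3 and 98.1 with NAC. The 6 genes of chromosome 5 (Gbp4, Gbp6, Gbp8, Gbp9, Gbp10 and Gbp11) summed to 55.2 and 50.2 FPKM in the controls, 131.9 and 110.1 with PQ, and 104.1 and 104.5 with NAC. The NAC sums were the highest on chromosome 3 and the PQ sums on chromosome 5, without overlap, but each order rested on its most abundant gene. Without Gbp2, a sum computed after the values had been seen, chromosome 3 gave 49.5 and 43.5 with PQ and 50.9 and 49.2 with NAC, and without Gbp9 chromosome 5 gave 71.8 and 55.2 with PQ and 56.4 and 57.0 with NAC, so that PQ and NAC overlapped in both. In PQ against NAC, 2 of the 5 genes tested on chromosome 3 were called lower, Gbp2 and Gbp2b (-0.65, SE 0.22), and 2 of the 5 tested on chromosome 5 were called higher, Gbp4 (0.40, SE 0.10) and Gbp9 (0.29, SE 0.09). Over all genes tested, 15.7% were called lower and 16% higher in that comparison. With the labels as a covariate Gbp2b, Gbp4 and Gbp9 were no longer called, nor were they without PQ 1 (-0.41, 0.32 and 0.24) or without NAC 1 (-0.61, 0.35 and 0.30). Without NAC 2 the calls of Gbp2b (-0.69) and Gbp9 (0.28) ended too. Whether the chromosomes differ was not tested.

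**Figure D4:**
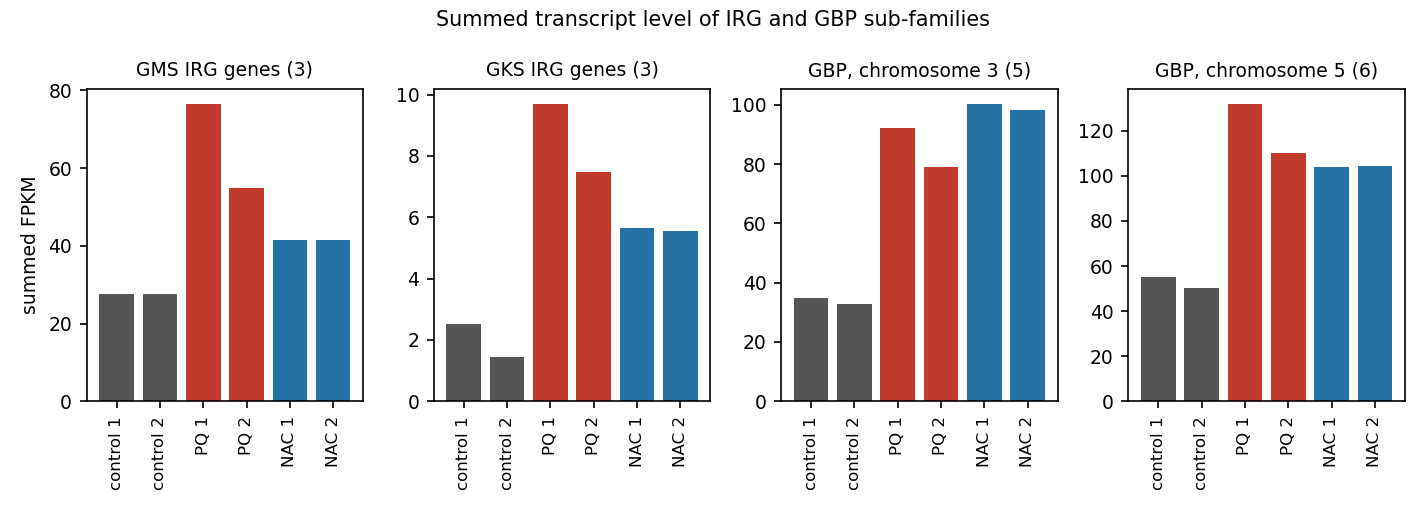
Summed FPKM per library of the 3 GMS genes, the 3 GKS genes, the 5 GBP genes of chromosome 3 and the 6 GBP genes of chromosome 5, each panel with its own axis from 0; grey bars are control, red bars PQ and blue bars NAC. The GMS sum falls from 76.5 and 54.9 with PQ to 41.6 and 41.4 with NAC, whereas on chromosome 3 the NAC bars are the tallest.

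Other interferon-stimulated genes, from a list of 18 with 16 tested, rose with PQ and for the most part not with NAC. In PQ against control 15 were called higher and none lower, with a median of 0.94; the count was 10 without PQ 1. In NAC against control 3 were called higher and 1 lower, with a median of 0.06. The count of genes called higher was 5 without control 1, 5 with the labels as a covariate (median 0.17) and 2 without NAC 1, and the median was -0.09 without control 2. In PQ against NAC 14 were higher and none lower, with a median of 1.08. Of all genes tested, 9.76% were called higher with PQ, 9.01% higher and 9.64% lower with NAC, and 16% higher in PQ against NAC. Ifit1, which binds foreign RNA ends, stood at 10.9 and 6.17 FPKM in the controls, 41.8 and 28.8 with PQ, and 11.7 and 9.42 with NAC. Its rise with PQ was 2.02 (SE 0.20), and with NAC it differed by 0.27 (SE 0.21). The NAC value of Ifit1 was 0.63 with the labels as a covariate. Against control 2 alone, NAC 1 and NAC 2 had log2 ratios of 0.89 and 0.56 for this gene. Of the 3 genes called higher with NAC, Ifit3 rose by 1.10 (SE 0.24) and Ifit2 by 0.52 (SE 0.11). The other was Rsad2, the antiviral protein viperin, at 0.65 (SE 0.16), a call that ended without NAC 1 (0.54). Dhx58, a regulator of RNA sensing, fell by 1.41 with NAC (SE 0.23). The GBP members had medians of 1.28 with PQ and 1.40 with NAC. Whether the lists differ was not tested.

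**Figure D5:**
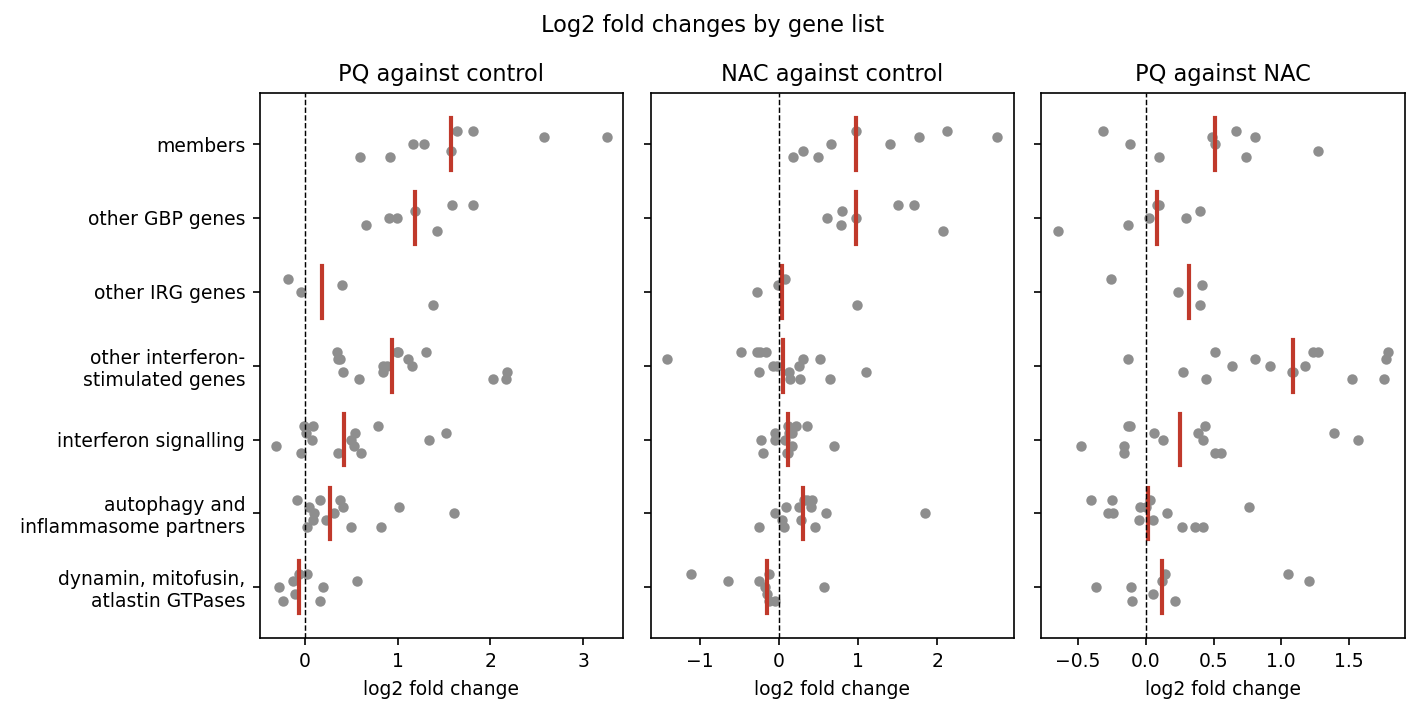
Log2 fold changes of every gene tested in 7 lists for the 3 comparisons; grey points are genes, red bars list medians and the dashed line the median of all genes tested. The other GBP genes have medians of 1.19 with PQ and 0.98 with NAC, whereas the other interferon-stimulated genes have 0.94 and 0.06.

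Genes that carry the interferon signal were examined next, from a list of 18 with 14 tested. Ifnb1, which encodes interferon-beta, had at most 1 count in any library, too few to compare. The receptor genes Ifnar1, Ifnar2 and Ifngr1 were not called in any comparison, and Ifngr2 rose with PQ by 0.54 (SE 0.11). With PQ 7 genes were called higher and none lower, with a median of 0.42, and 4 were higher without PQ 1. Among all genes tested, 9.76% were called higher with PQ in the fit of all libraries. Irf7, which amplifies the type I interferon response, stood at 13.0 and 10.0 FPKM in the controls, 33.5 and 25.5 with PQ, and 9.39 and 10.7 with NAC. Its log2 fold changes were 1.34 (SE 0.15) with PQ and -0.23 (SE 0.16) with NAC. Irf1, a factor induced by interferon-gamma and other signals, stood in an order like that of Gbp3, at 16.2 and 16.5 FPKM in the controls, 26.4 and 21.8 with PQ, and 26.3 and 28.5 with NAC. It rose by 0.70 (SE 0.11) with NAC and by 0.54 (SE 0.12) with PQ, the latter call ending without PQ 1 (0.41). Usp18, which restrains interferon receptor signalling, rose by 1.52 (SE 0.19) with PQ and differed by 0.13 (SE 0.21) with NAC.

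Of 8 MHC class II and interferon-gamma response genes, only H2-DMa was tested, and Ciita had at most 6 counts and Cxcl9 at most 5.07 in any library. H2-DMa was not called against control with either treatment (0.89, SE 0.32 with PQ and -0.40, SE 0.38 with NAC). It was called higher with PQ without PQ 2 (1.17) and without the filter on low values (0.88). In PQ against NAC it was called higher (1.29, SE 0.34), which ended without PQ 1 (0.92) or NAC 2 (1.06).

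The autophagy conjugation proteins that direct IRG and GBP loading, and the inflammasome genes downstream of GBP proteins, formed a list of 14, all tested. In PQ against control 6 were higher and none lower, and in NAC against control 5 were higher and none lower, with medians of 0.27 and 0.30. These counts were 3 without PQ 1 and 3 without NAC 2. With all libraries, 9.76% of all genes tested were called higher with PQ and 9.01% with NAC. Casp4, the sensor of cytosolic lipopolysaccharide known as caspase-11 in mice, had 26 and 21 counts in the controls, 78 and 70 with PQ, and 87 and 95 with NAC. It rose by 1.61 (SE 0.25) with PQ and 1.85 (SE 0.25) with NAC, with no call in PQ against NAC (-0.24, SE 0.20). Sqstm1, the autophagy receptor p62, rose by 0.82 (SE 0.09) with PQ and 0.46 (SE 0.09) with NAC. Trim21 rose by 1.01 (SE 0.17) with PQ and differed by 0.26 (SE 0.17) with NAC. Of the conjugation genes, Atg3, Atg5, Atg12 and Atg16l1 were not called in any comparison, and Atg7 was called higher with NAC (0.42, SE 0.13). That call ended without control 1 (0.42), control 2 (0.41), NAC 1 (0.49) or NAC 2 (0.34), and with the labels as a covariate (0.39). The conjugated proteins Gabarapl1 (0.41 with PQ and 0.41 with NAC) and Map1lc3b (0.31 and 0.59) were called with both treatments. Without control 1 only the NAC call of Map1lc3b was kept among these, the others ending at 0.34 and 0.34 for Gabarapl1 and 0.26 for Map1lc3b. The PQ calls of both also ended without PQ 1 (0.29 and 0.30), that of Map1lc3b without PQ 2 (0.32) or NAC 2 (0.31) or with the labels as a covariate (0.31), and the NAC call of Gabarapl1 without NAC 2 (0.36).

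GTPases of the dynamin superfamily that are not interferon-inducible served as a contrast. Of 9 tested, 1 was called higher and none lower with PQ, and 1 higher and 2 lower with NAC, with medians of -0.06 and -0.15. Over all genes tested, 9.76% were called higher and 9.45% lower with PQ, and 9.01% higher and 9.64% lower with NAC. Nothing is read from counts this small. With the labels as a covariate, or without control 1 or NAC 1, only 1 was lower with NAC. Dnm1, the neuronal dynamin, rose with PQ by 0.57 (SE 0.12) and fell by 0.64 with NAC (SE 0.12). Mfn1, a GTPase of mitochondrial fusion, rose with NAC by 0.57 (SE 0.10). None of the 10 genes of this list held the GAAA repeat or TTCNNNGAA in their windows.

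The genes outside the families whose pattern was most like the mean of the 9 members were Cyp2j6 (Pearson r = 0.997), Micall1 (0.995), Pmm2 (0.992), Ccl2 (0.992) and Clip4 (0.990), over 6 libraries. These 5 correlations were the highest among the genes tested outside the families and are named as a description. Ccl2, a chemokine, stood at 108.2 and 84.8 FPKM in the controls, 324.5 and 254.3 with PQ, and 180.8 and 188.5 with NAC. Within the families, Gbp9 (r = 0.995) and Gbp4 (0.994) lay closest to the member mean, and F830016B08Rik (-0.23) and Gm4841 (-0.30) farthest from it.

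Fractional counts mark reads that could be divided between similar genes. All 10 members had a fractional count in some library, as did 8 of 10 other IRG genes and 8 of 8 other GBP genes listed, compared with 23.2% of all genes tested. Values of single members of these families are uncertain to that extent.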

How the data were processed

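RNA-seq of control, PQ-treated and NAC-treated NSPCs was analysed from 6 gene tables, 1 per library. The members and the lists were chosen with earlier results of these data known. The expected counts, as deposited, are reads per gene estimated by the authors with reads shared between genes divided, and 78.6% to 79.1% of them are whole numbers. The FPKM values, as deposited, were scaled by the authors to transcript length and library size. For control 1 and PQ 1 the labels name bcl2fastq 2.17, cutadapt, TopHat2 2.0.11, Cufflinks 2.1.1 and mm9, and for the other libraries HISAT2 2.0.4, Bowtie2 2.2.5, RSEM and mm10. All tables list the same transcripts per gene and have columns of the RSEM type. The methods name a stranded library kit, and the strand used in counting is not stated. NCBI gene numbers were matched to mouse symbols for 99.7% of 17254 genes.

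Expected counts were rounded, and genes with a mean FPKM of 1 or more were normalized by TMM and tested with edgeR 4.0.16 in R 4.3.3 (quasi-likelihood F test, all 6 libraries, no covariates, Benjamini-Hochberg). A gene was called at an adjusted p under 0.05, and SE was the log2 fold change divided by the square root of F. Named genes that fell below the filter are described by their counts. Alternatives were RLE scaling, DESeq2 1.42.0, no filter, the labelled batch as a covariate, only the 4 libraries compared, limma 3.58.1 on log2 FPKM with a pseudocount of 1 or 0.1, leaving out each library, and, chosen after seeing the data, Tgtp1 and Tgtp2 summed. At around 10 counts, as for Tgtp2 and Ifi47 in control cells, a value is known only roughly. The steps were tested on simulated data with known changes.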

Additional observations from a re-analysis of the deposited data

How the results depend on the processing

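For members called in PQ against NAC, DESeq2 and the labelled batch as a covariate gave 3, and limma on log2(FPKM + 1) and on log2(FPKM + 0.1) gave 2. For other family genes in PQ against NAC the covariate gave 2. With each library left out, genes called ranged from 866 to 2206 in PQ against control (866 without PQ 1), 1286 to 2126 in NAC against control (1286 without NAC 1, 1427 without NAC 2) and 2343 to 4207 in PQ against NAC (2343 without PQ 1, 2407 without NAC 1). Members called ranged from 9 to 9, 4 to 7 and 3 to 6, with 4 without NAC 1 in NAC against control and 3 without PQ 1 or NAC 2 in PQ against NAC. Other family genes called ranged from 6 to 10, 6 to 7 and 1 to 5, with 6 without PQ 1 in PQ against control, and 1 without PQ 1, 1 without NAC 1 and 3 without NAC 2 in PQ against NAC. The log2 fold change of Gbp3 in PQ against NAC ranged from -0.2595 to 0.0055 and reversed to 0.0055 without PQ 2. That of Gbp7 ranged from -0.0309 to 0.2374 and reversed to -0.0309 without NAC 2. Other member fold changes kept their direction. The cause was not tested.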

Other observations

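Markers of the progenitor state also differed between PQ and NAC. Vim, an intermediate filament of progenitors, stood at 2170.9 and 2323.3 FPKM in the controls, 2547.3 and 2647.2 with PQ, and 1362.4 and 1389.2 with NAC. The NAC libraries were low, and the log2 fold changes against control were -0.75 (SE 0.08) in NAC and 0.18 (SE 0.08) in PQ. Among astrocyte genes, Aqp4, a water channel, stood at 0.79 and 0.70 FPKM in the controls, 0.54 and 0.83 with PQ, and 2.66 and 2.56 with NAC, and was high only with NAC (1.76, SE 0.22). Gfap, an astrocyte filament, was likewise higher with NAC (1.23, SE 0.21) and not with PQ (-0.05, SE 0.24). S100b was not called with NAC (1.17, SE 0.44) or with PQ (0.65, SE 0.48). It was called with NAC with the labels as a covariate, without control 1 or without the filter on low values. The median of the astrocyte list with NAC, 1.17, was 0.74 without control 2 and 0.80 without NAC 1. Gja1, the most abundant gene of the list, was lower with NAC (-0.43, SE 0.09) and higher with PQ (0.31, SE 0.09), the latter call ending without control 2 (0.28), PQ 1 (0.38) or PQ 2 (0.24). Aldh1l1 was higher with PQ (1.17, SE 0.26), a call that ended without PQ 1 (0.93), and was not called with NAC (-0.49, SE 0.31).

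The neuron list did not move together either. Map2, a neuronal microtubule protein, rose with NAC (0.77, SE 0.10). Tubb3, a tubulin of neurons that fell below the filter, had 41.0 and 22.9 counts in the controls, 13 and 8 with PQ, and 6 and 7.67 with NAC, so that both treatments were below the controls. Syt1, also below the filter, had 8 and 11 counts in the controls, 13 and 12 with PQ, and 3 and 5 with NAC. Both NAC counts were below the others, but counts this small are known only roughly. Dcx had at most 7.69 counts in any library, and Rbfox3, a marker of mature neurons, had 0 counts in every library. The part of these shifts in the GTPase levels was not tested.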
